A study of Mus musculus with 11 samples.

Results

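Voltage-gated sodium channels open on depolarisation and carry the fast inward current of an action potential. Each channel has 1 large alpha subunit that forms the pore, and smaller beta subunits that adjust its gating and its place in the membrane. In islets of Langerhans these channels shape the electrical activity that precedes hormone release, and in mouse islet cells the pore genes *Scn3a*, which encodes Nav1.3, and *Scn9a*, which encodes Nav1.7, are the best known.

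The group described here holds 8 genes of this family. The alpha subunit genes are *Scn1a*, *Scn2a*, *Scn3a*, *Scn8a* and *Scn9a*, and the beta subunit genes are *Scn2b*, *Scn3b* and *Scn4b*. *Scn3a* was chosen by its FPKM difference between genotypes, as 1 of 13 genes at the head of the study's ordering, and the other genes were added as its family. Its genotype values are therefore given as a description with no test. Of 19329 gene IDs in the table, 6 belong to these genes, while *Scn1a* and *Scn4b* have no row and were not analysed here.

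Bulk RNA was sequenced from whole islets of chow-fed male mice aged 14 weeks on an inbred C57BL/6N background. The wild-type group held 6 libraries, and the mutant group held 5 libraries from PDX1 P33T/P33T mice, here PDX1 P33T, which carry on both alleles a proline-to-threonine change in the islet transcription factor PDX1. The mutation was made with CRISPR-Cas9 in embryos and is present in every cell. The study names no drug treatment for these islet donors, and islets were kept in culture after isolation. The figure legend gives 6 mice for each replicate, so a library may be a pool, and n and SD refer to libraries. FPKM, the fragments counted per length of gene and per depth of library, do not show the mutated base, so the labels were not checked by it.

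For most genes the deposited wild-type values stand on the row of another gene, whereas the PDX1 P33T values stand on their own rows. Wild-type rows were identified from the read counts of the study's gene table or from gene length and level, for 4726 genes that could then be compared. Among the sodium channel genes this succeeded for 4. *Scn3a* was on its own row as deposited, *Scn9a* was found by its reads, and *Scn8a* and *Scn3b* were found by length and level. For *Scn2a* and *Scn2b* only the PDX1 P33T levels are reported as their own.

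The libraries held 19311937 to 37094286 counted reads. Beta cell markers led in both genotypes, with *Ins2* at 113559 to 162510 FPKM in wild-type and at 135342 to 177811 FPKM in PDX1 P33T. Wild-type replicate 3 stood apart by its endothelial markers, with a *Kdr* level of 44.6 FPKM, while its other wild-type values ran from 8.67 to 19.1 FPKM. Wild-type replicate 2 stood apart by its 2 compared stromal markers, whose sum was 22.0 FPKM, while it ran from 0.869 to 3.92 FPKM elsewhere in the group. In PDX1 P33T replicate 2 all 5 acinar markers were at their highest, with a *Ctrb1* level of 41.5 FPKM, which ran from 2.51 to 6.52 FPKM elsewhere in the group. Log2 differences of the sodium channel genes and the marker sums are given below also without the libraries that stand apart, where these change them. In bulk RNA, fewer cells of a type and less RNA per cell cannot be told apart.

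Some of the alpha subunit genes share stretches of sequence, which bears on how reads can be assigned to them. In the longest reading frame of *Scn3a* in GENCODE vM21 on GRCm38, 14.0% of the 50-base words of *Scn3a* occur in a transcript of another sodium channel gene, and 7.01% occur in *Scn9a*. The corresponding share was 8.89% for *Scn9a* and 0.101% for *Scn8a*, and it was 0 for the beta subunit genes. A read from a shared word could be counted for either gene or dropped, and how such reads were treated is not given in the sources used here, so the split between *Scn3a* and *Scn9a* is uncertain to that extent.

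*Scn3a* was expressed at a low level and was higher in PDX1 P33T islets. Its wild-type level had a lowest value of 0.294, a median of 0.329 and a highest value of 0.362 FPKM. In PDX1 P33T replicates 1 to 5 it stood at 0.576, 0.490, 0.497, 0.584 and 0.552 FPKM. All 5 mutant libraries lay above all 6 wild-type libraries, and neither group had a library far from the rest. The wild-type mean was 0.329 ± 0.0309 FPKM (SD, n = 6) and the mutant mean 0.540 ± 0.0439 FPKM (SD, n = 5), which is 1.64 times as high. Groups without overlap were found in 4.85% of all compared genes and in 12.7% of those whose row came from the study's gene table, from which nothing is read for a gene chosen on this contrast. On the scale of log2(FPKM + 0.1), which understates the change of low genes, the difference was 0.58 ± 0.11 (SE), just below the limit of 1.5-fold used for a call.

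These levels rest on few reads for so long a gene. *Scn3a*, with a recovered length of 12717 bases, drew 87 to 142 reads in the wild-type libraries and 148 to 259 in the PDX1 P33T libraries. Counting alone would give a spread of 9.53% of the mean in wild-type, against an observed 9.39%. In PDX1 P33T the counting spread was 7.10% and the observed spread 8.12%. The spread between libraries was therefore about that of read counting in both genotypes. Leaving out any 1 library kept the log2 difference between 0.55 and 0.61, and it was 0.62 without wild-type replicates 2 and 3 together.

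**Figure D1:**
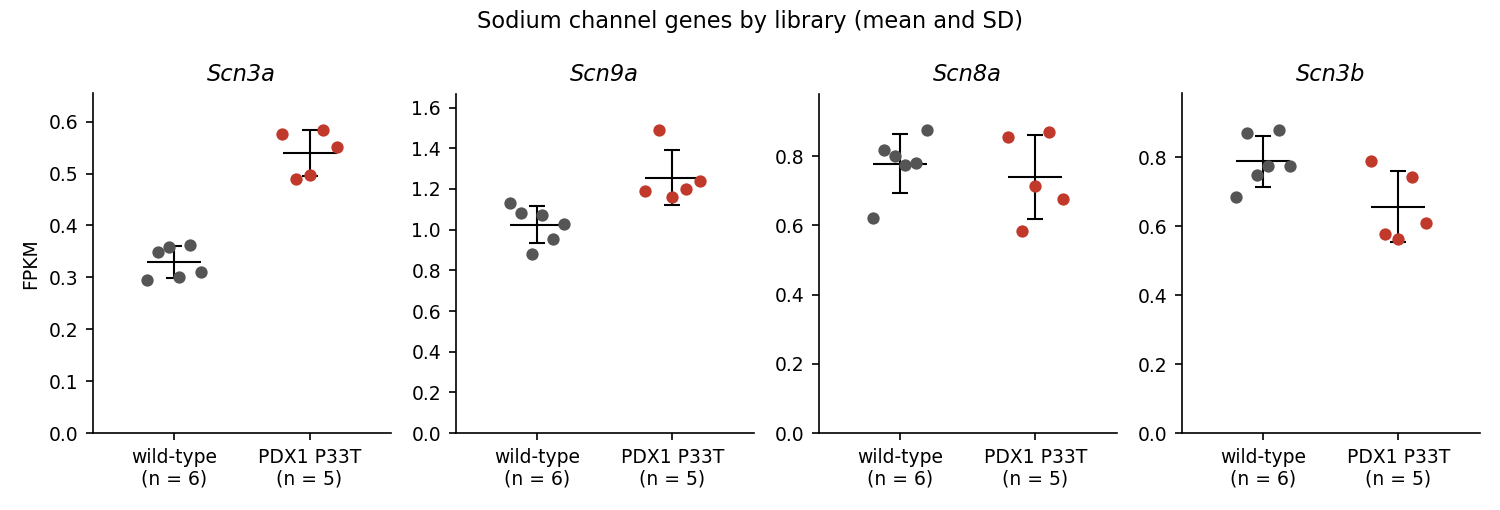
FPKM (vertical axes, each from 0) of the 4 sodium channel genes compared between genotypes, with 1 point per library, grey for the 6 wild-type and red for the 5 PDX1 P33T libraries, and the mean and SD in black. The groups are apart for *Scn3a*, stand next to each other for *Scn9a* (up to 1.13 in wild-type and from 1.16 in PDX1 P33T) and overlap for *Scn8a* and *Scn3b*.

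*Scn9a*, the pore gene with the highest level here, was measured more firmly, with 217 to 507 reads in wild-type and 376 to 585 in PDX1 P33T. Its wild-type level ran from 0.880 through a median of 1.05 to 1.13 FPKM. In PDX1 P33T replicates 1 to 5 it stood at 1.19, 1.49, 1.16, 1.20 and 1.24 FPKM. The groups did not overlap, but the lowest mutant library lay only just above the highest wild-type library, and replicate 2 stood above the other 4 mutant libraries.

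For *Scn9a* the wild-type mean was 1.02 ± 0.0912 FPKM (SD, n = 6) and the mutant mean 1.25 ± 0.134 FPKM (SD, n = 5), which is 1.23 times as high. The log2 difference was 0.27 ± 0.10 (SE), and with limma its adjusted p over all gene IDs was 0.499, so *Scn9a* was not called. A 2-sided exact permutation test of this gene alone gave p = 0.00433, the smallest that 6 against 5 libraries can give. Without PDX1 P33T replicate 2, the library with the high acinar markers, the log2 difference was 0.21, and without wild-type replicates 2 and 3 it was 0.24. The row of *Scn9a* was found through the study's gene table, which is held here only in its first part and is ordered by difference, so a family gene without a difference was less likely to be found this way. In GENCODE vM21, 1.41% of the exon bases of *Scn9a* overlap exons of the antisense gene *Gm13629*, and without known strand the 2 cannot be told apart there.

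*Scn8a*, the pore gene of Nav1.6, showed no such separation. Its wild-type level ran from 0.621 through a median of 0.790 to 0.876 FPKM. In PDX1 P33T replicates 1 to 5 it stood at 0.856, 0.583, 0.714, 0.870 and 0.676 FPKM. The mutant libraries covered nearly the whole wild-type range, and the lowest of all 11 was PDX1 P33T replicate 2. The wild-type mean was 0.778 ± 0.0854 FPKM (SD, n = 6) and the mutant mean 0.740 ± 0.123 FPKM (SD, n = 5). The log2 difference was -0.07 with a 95% interval from -0.35 to 0.20 and a limma adjusted p of 1.0, and the exact permutation test gave p = 0.524. Without PDX1 P33T replicate 2 the log2 difference was 0.00.

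*Scn3b* encodes the beta3 subunit, which attaches to the pore without a covalent bond. Its wild-type level ran from 0.684 through a median of 0.776 to 0.880 FPKM. In PDX1 P33T replicates 1 to 5 it stood at 0.790, 0.579, 0.562, 0.744 and 0.611 FPKM. Mutant replicates 2, 3 and 5 lay below every wild-type library, while replicates 1 and 4 lay among them. On 75 to 157 reads per library, the wild-type mean was 0.789 ± 0.0746 FPKM (SD, n = 6) and the mutant mean 0.657 ± 0.103 FPKM (SD, n = 5), 0.833 times the former. The log2 difference was -0.24 with a 95% interval from -0.50 to 0.02, a limma adjusted p of 0.690 and an exact permutation p of 0.0455, and *Scn3b* was not called.

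Of the 3 genes that the choice of *Scn3a* did not involve, 0 passed the limits for a call. These were a limma adjusted p no higher than 0.05 together with a change of 1.5-fold or more. By limma 1 of the 3, *Scn9a*, had an unadjusted p under 0.05, at 0.0213, while that of *Scn3b* was 0.0676. An unadjusted limma p under 0.05 was found for 34.0% of all compared genes. The share was 87.1% among those from the study's gene table, where *Scn9a* stands, but 4.88% among those found by length and level. The p of *Scn9a* therefore does not set it apart from the genes it was found with. Over all 4726 compared genes, 4 were called, which is 0.0846%. Against the 12.7% of genes without overlap among those from the study's gene table, where *Scn9a* and *Scn3a* stand, the share was 0.524% among the genes found by length and level, where *Scn8a* and *Scn3b* stand. The latter genes lie mostly outside the held part of that table, so a difference was less likely among them. The median log2 difference over all compared genes was -0.06, and it was -0.32 over the genes from the study's table.

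**Figure D2:**
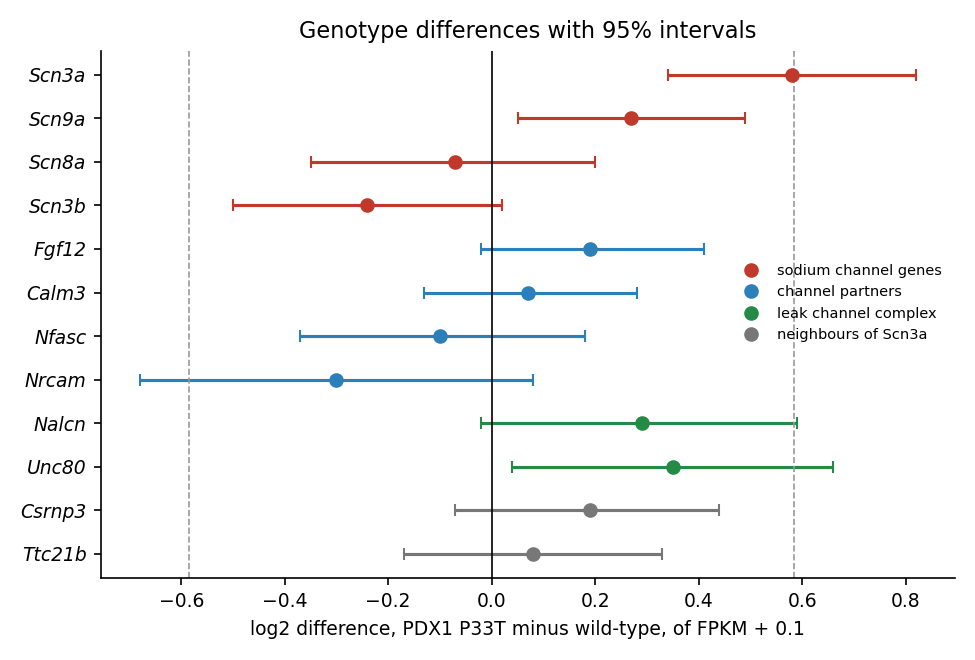
Log2 difference of FPKM + 0.1, PDX1 P33T minus wild-type (horizontal axis), with its 95% interval for each gene that could be compared, coloured by list, with dashed lines at a fold change of 1.5. The *Scn3a* value of 0.58 sits at the dashed line, and the 4 sodium channel genes lie on both sides of 0.

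The 3 pore genes were also set against each other within each library, which removes any scaling that all genes of a library share. *Scn3a* made up 14.0% to 17.6% of the summed FPKM of *Scn3a*, *Scn8a* and *Scn9a* in wild-type and 19.1% to 22.4% in PDX1 P33T. *Scn8a* made up 30.4% to 39.6% and 22.8% to 32.8%, and *Scn9a* made up 43.1% to 55.3% and 45.1% to 58.1%. *Scn9a* gave the largest share in every library of both genotypes, and only the *Scn3a* shares did not overlap between genotypes. The 3 genes summed to 2.13 ± 0.0860 FPKM (SD, n = 6) over the wild-type libraries and to 2.53 ± 0.114 FPKM (SD, n = 5) over the mutant libraries. Since *Scn3a* was chosen for its difference, its share and the sum are descriptions with no test.

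**Figure D3:**
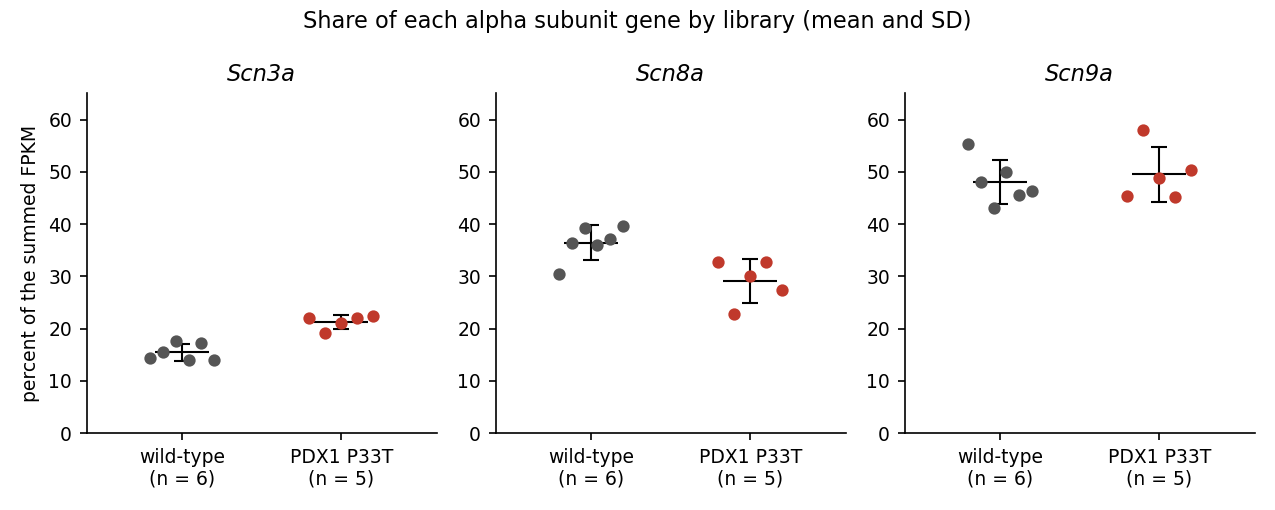
Percent of the summed FPKM of *Scn3a*, *Scn8a* and *Scn9a* (vertical axes, from 0) taken by each gene, with 1 point per library and the mean and SD in black. *Scn3a* rises from 14.0% to 17.6% in the 6 wild-type libraries to 19.1% to 22.4% in the 5 PDX1 P33T libraries, and the ranges of *Scn8a* and *Scn9a* overlap.

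Within the PDX1 P33T libraries, where each value stands on its own row, the family covered a wide range of levels. The highest of the described genes was *Scn9a*, at 1.16 to 1.49 FPKM. Its range lay above that of *Scn8a*, the next gene, and its mean was 1.70 times that of *Scn8a*. Below *Scn9a* came *Scn8a*, *Scn3b* and *Scn3a*, with means of 0.740, 0.657 and 0.540 FPKM. The ranges of neighbours in this run overlapped, but *Scn8a* was above *Scn3b*, and *Scn3b* above *Scn3a*, in 5 of 5 libraries. *Scn2b*, which encodes the beta2 subunit that is bound to the pore by a disulfide bridge, followed at 0.312, 0.136, 0.180, 0.227 and 0.186 FPKM in replicates 1 to 5. Its range did not reach that of *Scn3a*, whose mean was 2.60 times higher. It rests on 15 to 39 reads per library.

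*Scn2a*, which encodes Nav1.2, a main pore of brain axons, was at the lower end. It drew 5, 4, 4, 6 and 9 reads in PDX1 P33T replicates 1 to 5, with a mean of 0.0150 ± 0.00400 FPKM (SD, n = 5). This is a trace level in each of the 5 libraries, far below its chromosome neighbour *Scn3a*. There were 2 wild-type rows of its length, with means of 3.75 and 0.0105 FPKM. The one nearer in level drew 1, 5, 0, 8, 2 and 7 reads, too few for it to be taken as identified, and no comparison between genotypes was made.

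For *Scn2b*, 2 of the 3 wild-type rows of its length were near its level, with means of 0.251 and 0.532 FPKM, and which of them is its own was not settled. *Scn7a*, which encodes the related sodium-sensing Nax, drew 9 to 23 reads per mutant library, 72 in all, with a mean of 0.0681 FPKM, too few for its wild-type row to be taken as identified. *Scn11a* is listed at 0 in each PDX1 P33T library, and *Scn4a* and *Scn10a* have no row and were not analysed here.

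**Figure D4:**
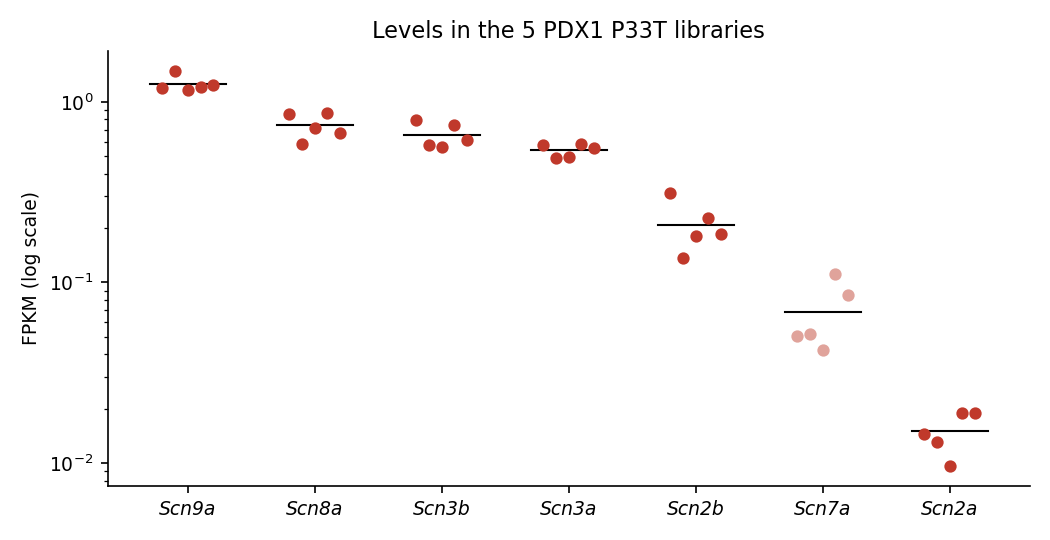
FPKM on a log axis of 7 sodium channel genes with reads in the 5 PDX1 P33T libraries, ordered by mean (black line), in dark red for the genes of the described group and in light red for *Scn7a*. *Scn9a* stands at 1.16 to 1.49 FPKM, a cluster of *Scn8a*, *Scn3b* and *Scn3a* below 0.9, and *Scn2a* near 0.0150.

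The genes did not vary in the same way among the mutant libraries. PDX1 P33T replicate 2 was the lowest of the 5 for *Scn8a*, *Scn3a* and *Scn2b*, but the highest for *Scn9a*. Replicate 4 was the highest for *Scn8a* and *Scn3a*, and replicate 1 the highest for *Scn3b* and *Scn2b*. After the genotype means were removed, the correlation over the 11 libraries was 0.77 for *Scn3a* with *Scn3b* and for *Scn8a* with *Scn3b*, and 0.63 for *Scn3a* with *Scn8a*. With *Scn9a* it was -0.64 for *Scn3a*, -0.63 for *Scn8a* and -0.32 for *Scn3b*. The points share libraries and their cell makeup, and the values are a description. In the same replicate 2, *Iapp*, the amyloid peptide released with insulin, reached 56328 FPKM, while it ran from 28444 to 31927 FPKM elsewhere in the group, and the part of the cell makeup in these patterns was not tested.

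Markers of other cells were set beside the channel genes. The alpha cell hormone gene *Gcg* had a log2 difference of 0.32 with a limma adjusted p of 1.0, and the delta cell hormone gene *Sst* had a log2 difference of -0.32 with an adjusted p of 0.997. Of the 7 Schwann cell markers 3 were compared, and their summed level ran from 1.17 to 5.10 FPKM in wild-type, or to 1.82 FPKM without wild-type replicates 2 and 3, and from 0.627 to 1.19 FPKM in PDX1 P33T. The neuronal filament gene *Prph* alone of 5 neuronal markers was compared, at 0.408 to 1.39 FPKM in wild-type and 0.105 to 0.651 FPKM in PDX1 P33T, while *Chat* has no row. The 2 compared of 3 endothelial markers, *Pecam1* and *Kdr*, summed to 16.2 to 82.9 FPKM in wild-type, or up to 35.2 FPKM without the same replicates, and to 12.9 to 29.0 FPKM in PDX1 P33T. All 3 immune markers were compared and summed to 19.8 to 50.6 FPKM in wild-type, or up to 28.2 FPKM without those replicates, and to 15.6 to 24.8 FPKM in PDX1 P33T. The 2 compared of 3 stromal markers summed to 0.869 to 22.0 FPKM, or up to 2.28 FPKM without them, and to 1.25 to 2.40 FPKM in PDX1 P33T. The sums of the 2 genotypes overlapped in each of these 5 lists, but the groups of the Schwann cell marker *Ngfr* did not. *Ngfr* ran from 0.772 to 3.66 FPKM in wild-type and from 0.293 to 0.695 FPKM in PDX1 P33T. Its log2 difference was -1.45 with a limma adjusted p of 0.457, and the study names it among its downregulated genes. Groups without overlap were found for 12.7% of the genes from the study's gene table, where *Ngfr* stands. All 11 compared markers had a log2 difference below 0, but 0 were called, with limma adjusted p from 0.457 to 1.0, and their part in the channel values was not tested. No acinar or duct marker could be compared between genotypes.

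Proteins that bind the channels or hold them in place were then examined. All 13 partner genes described have a row, and 4 could be compared, all found by length and level. With limma 0 of the 4 were called, beside 0.0846% of all compared genes. An unadjusted limma p under 0.05 was found for 0 of them, beside 34.0% of all compared genes and 4.88% of those found by length and level. Such genes lie mostly outside the held part of the study's table, so a difference was less likely among them. Nothing is read from these counts. *Fgf12*, a fibroblast growth factor homologue that binds the tail of the pore and shifts its inactivation, had overlapping groups, with a wild-type mean of 3.81 ± 0.503 FPKM (SD, n = 6) and a mutant mean of 4.35 ± 0.270 FPKM (SD, n = 5). The cell adhesion gene *Nrcam*, whose protein gathers channels at nodes of axons, had a log2 difference of -0.30 with a 95% interval from -0.68 to 0.08, and its relative *Nfasc* had one of -0.10. The calmodulin gene *Calm3*, whose product also binds the tail of the pore, differed by 0.07 on the log2 scale. The median log2 difference over the 4 was -0.01, beside -0.06 over all compared genes.

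By level in PDX1 P33T islets, the leading partners other than the calmodulins were *Sptbn4*, the spectrin of axon initial segments, at 6.16 to 7.73 FPKM and *Cntn1*, an adhesion protein of axons, at 4.76 to 6.43 FPKM. *Nfasc* stood at 3.58 to 5.26 FPKM and *Fgf12* at 4.10 to 4.73 FPKM. The anchor genes *Ank2* and *Ank3* had means of 1.15 and 0.531 FPKM, and *Nedd4l*, a ubiquitin ligase that removes channels from the membrane, one of 1.52 FPKM. The *Fgf12* relatives were lower, with means of 0.827 FPKM for *Fgf14*, 0.115 FPKM for *Fgf11* and 0.0415 FPKM for *Fgf13*. *Calm2* had a mean of 165 FPKM.

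The sodium leak channel NALCN is a related pore that stays open at rest and needs UNC79, UNC80 and a NALF subunit. *Nalcn* stood at 1.02 to 1.67 FPKM in wild-type, with a median of 1.14, and at 1.33, 1.61, 1.58, 1.19 and 1.77 FPKM in PDX1 P33T. *Unc80* stood at 2.82 to 5.56 FPKM in wild-type, with a median of 4.29, and at 5.03, 5.17, 5.34, 5.18 and 6.09 FPKM in PDX1 P33T. For both genes the groups overlapped, for *Unc80* through wild-type replicate 1 alone, at 5.56 FPKM. The log2 differences were 0.29 for *Nalcn* and 0.35 for *Unc80*, with limma adjusted p of 0.663 and 0.512, and *Unc80* alone of the pair had an unadjusted p under 0.05, as had 34.0% of all compared genes and 4.88% of those found, like *Unc80*, by length and level. The wild-type rows of *Unc79*, *Nalf1* and *Nalf2* were not settled, and in PDX1 P33T islets their means were 1.00, 3.07 and 6.42 FPKM.

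On chromosome 2, *Scn3a* stands beside *Scn2a* in a cluster that also holds *Scn1a*, *Scn9a* and *Scn7a*, with *Csrnp3*, *Galnt3* and *Ttc21b* between them. Among the 7 neighbours 2 could be compared, and 0 were called with limma, with 0 at an unadjusted limma p under 0.05. Over all compared genes these shares were 0.0846% and 34.0%, and nothing is read from a count over 2 genes. *Ttc21b*, a gene of transport in cilia, had a log2 difference of 0.08 with a 95% interval from -0.17 to 0.33. *Csrnp3*, which encodes a nuclear protein, drew 0 to 3 reads in wild-type and 4 to 11 in PDX1 P33T. In FPKM its groups overlapped, with values up to 0.0126 in wild-type and from 0.0121 in PDX1 P33T. The log2 difference of *Csrnp3* was 0.19, with a limma adjusted p of 1.0. Its means of 0.00621 and 0.0212 FPKM lie far below the added 0.1, so 0.19 understates their ratio of 3.41. The exact permutation test gave p = 0.00433. Its row was found through the study's gene table, where a gene without a difference was less likely to be found, and its values lie at the level of a few reads. In PDX1 P33T islets *Cobll1* and *Grb14* had means of 4.65 and 3.06 FPKM, *Galnt3* had 0.247 FPKM and *Slc38a11*, next to *Scn3a*, had 0.0509 FPKM. *Xirp2* has no row and was not analysed here.

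The genes whose pattern over the 11 libraries was most like that of *Scn3a* were named by the highest Pearson r of log2(FPKM + 0.1) among 3538 compared genes with a mean of at least 1 FPKM. They were *Pigr*, with r = 0.965, *Samhd1*, with 0.938, *Traf5*, with 0.860, *Tspan15*, with 0.859, and *Gnas*, with 0.856. Their means were higher in PDX1 P33T, which the choice by likeness to *Scn3a* largely fixes. *Pigr*, the carrier of secreted antibodies across epithelia, had a wild-type mean of 2.02 ± 0.362 FPKM (SD, n = 6) and a mutant mean of 5.15 ± 0.684 FPKM (SD, n = 5). After the genotype means were removed, r was 0.612 for *Pigr*, 0.552 for *Samhd1*, 0.449 for *Traf5*, 0.133 for *Gnas* and -0.154 for *Tspan15*. The likeness with the last 2 thus came mainly from the genotype means.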

How the data were processed

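Whole islets were profiled by bulk RNA-seq in 6 wild-type and 5 PDX1 P33T/P33T libraries. The authors filtered reads with fastp 0.23.1, aligned them with HISAT2 2.0.5 and counted them with featureCounts 1.5.0-p3 (names and versions from the submitters' processing notes, which also list GRCm39). They deposited FPKM per library, for genes present in 80% or more of a condition's replicates. The per-sample files repeat these values and were not used. Strandedness is not settled, since the methods name both kinds of library. The annotation release is not given in the sources used here. GENCODE vM21 on GRCm38 served only for gene names, neighbour order, exon overlaps and shared sequence words. Some listed genes and sequences are not reported here.

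Reads were recovered as FPKM times length times library total. As length served the lowest integer, tried from 20 up to 130000 bases, that turned every FPKM of a gene into whole reads (tolerance 2e-06 of a read, plus 1e-08 times the count). It matched 98.3% of the lengths in the study's gene table. That table, of which 1749 rows were held, gave the wild-type row of 1712 genes by their reads. Other rows were matched at the same length with at least 100 reads in each genotype, means within 4-fold and no other candidate within 16-fold. Of 403 such matches that the table can check, 403 were right. The 4726 compared genes exclude 39 listed at 0 in every mutant library.

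Genotypes were compared on log2(FPKM + 0.1) with limma 3.58.1 (R 4.3.3, trend and robust options), checked on simulated counts. Benjamini-Hochberg adjustment ran over 19329 gene IDs, with genes not compared taken as unchanged. Exact permutation tests used the difference of mean log2 values and were 2-sided. Named genes were the 8 members, every gene of the 4 lists held in the table, apart from those not reported, and the 5 genes most like *Scn3a*. The members and lists were chosen with earlier results of these data known, and the row matching was chosen after the values were seen. The labels do not say that libraries came from separate cultures, so p-values measure the spread between libraries. No 2 libraries of a genotype agreed within sampling noise, with a lowest median chi-square per gene of 1.35 against 0.455 for noise alone. A single read on 1 kb equals between 0.0270 and 0.0518 FPKM, depending on the library total, and read counts cover counting error only. Python 3.11.15 with numpy 2.4.6, pandas 2.3.3 and matplotlib 3.10.9 made the tables and plots.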

Additional observations from a re-analysis of the deposited data

Results flagged for a closer look

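*Scn9a* in PDX1 P33T replicate 2, at 1.49 FPKM, stood apart from the other 4 libraries of its group, with a gap of 0.749 of the group's range against a critical value of 0.710 for 5 samples. Of the 10 groups of sodium channel values examined this way it was the only one set apart, and chance sets apart about 1 group in 20. The same library held the highest acinar markers of the mutant group, with *Ctrb1* at 41.5 FPKM and *Prss2* at 18.5 FPKM, and the lowest *Scn8a* level, at 0.583 FPKM. Their relation to the *Scn9a* value was not tested.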

How the results depend on the processing

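The log2 difference of *Scn3a* was 0.58 and depended on the pseudocount, with 0.70 at 0.01 and 0.21 at 1, and it was 0.71 on log2 reads scaled to library size, as follows from a pseudocount near the level of the gene. A filter at a mean of 0.5 FPKM removed *Scn3a*. Leaving out 1 library at a time gave 0.55 to 0.61. *Scn9a* kept its sign under all 22 alternatives, from 0.16 to 0.30, and *Scn3b* from -0.30 to -0.11, with adjusted p from 0.122 to 1.0 and from 0.169 to 1.0. *Scn8a* ran from -0.13 to 0.00 when 1 library was left out, with 0.00 without PDX1 P33T replicate 2. None of *Scn9a*, *Scn8a* and *Scn3b*, and none of the pathway and neighbour genes, was called under any alternative. Over all compared genes the count of 4 calls became 13 when adjusted over the compared genes only, 8 without wild-type replicate 1, 2 at an absolute log2 fold change of 1.5 and 1 with the block by title. Scaling by size factors moved the median of all genes by 0.019. The labels state no pairing of the libraries by replicate number. Same-numbered libraries correlated from -0.60 to 0.11 by titles and from -0.60 to 0.12 by library names, 0 of 5 best with their own number. Correlations over 5 numbers cannot exclude a pairing. With the replicate block *Scn3a* differed by 0.57 and 0.60 and *Scn9a* by 0.27 and 0.23. With at least 20 reads for a match, 5 sodium channel genes instead of 4 had a wild-type row, *Scn2a* being added. That setting and the one without wild-type replicates 2 and 3 were chosen after seeing the data. The order of levels in PDX1 P33T islets stayed the same without any 1 library and after scaling. Depth limits *Scn2a*, *Scn7a* and *Csrnp3* to statements about a few reads.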
